A study of Homo sapiens with 32 samples.

Results

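The comparison was between 2 K-562 lines that had each been made resistant to 2 µM imatinib, called high-imatinib line 1 and high-imatinib line 2 here. The arrays were chosen by source name: 4 arrays of line 1 and 4 of line 2, which is 8 of the 32 arrays of the series. The design text calls the lines biological replicates of the same resistance and the 4 arrays of a line technical replicates. Each line was therefore measured as 1 RNA source, and every p-value below sets the difference between 2 RNA sources against technical spread only. It does not measure how much independently selected lines vary. To say which line had moved, each was also placed against 8 arrays of treatment-naive K-562 cells, 4 with titles in S and 4 with titles in K. The labels do not explain these letters, and each letter was taken as 1 naive set.

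K-562 is a human chronic myeloid leukemia cell line, grown in suspension, whose growth is driven by the fusion kinase BCR-ABL1, the target of imatinib and nilotinib. It resembles an early progenitor that can be pushed towards red cells, platelet precursors or macrophage-like cells. Cells that grow in the presence of a kinase inhibitor can keep the target active or come to rely on other signalling routes, and separate selections need not reach the same state. Per the labels, both lines were selected in rising drug concentrations, up to 2 µM imatinib. The other resistant cells are 2 lines at 0.5 µM imatinib and 2 lines at 0.1 µM nilotinib. All 8 sets are K-562, and nothing in the labels says that a line was cloned. The growth text, the same for every sample, describes medium without either drug, so whether imatinib was present at harvest is not clear.

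Values are the deposited array intensities on what reads as a log2 scale, where a difference of 1 is 2-fold and a difference of 2 is 4-fold. A gene is said to be higher in a line when its adjusted p is under 0.05 and its difference is at least 1. Values after ± are standard errors from limma with 4 arrays per line. Arrays of the same line correlated at r between 0.984 and 0.988 across genes in line 1 and between 0.982 and 0.991 in line 2. Array medians over the series lay between 5.85 and 6.11. The median difference between the lines over all 14884 genes was -0.04.

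Mature miRNAs are shown first for genes that return below, because the array feature reports the miRNA gene or its precursor and the mature form is what binds a target. Capitals mark the seed, bases 2 to 8, and all sequences are from RefSeq (GRCh38.p14). The first 3 are miR-223, a myeloid miRNA, miR-21, a miRNA raised in many cancers, and miR-3189, whose gene lies within the stress gene GDF15. The next pair shares the let-7 seed, and the last pair shares another seed although the genes differed in opposite directions. For MIR130B, the gene of miR-130b, both lines lay between the naive sets.
hsa-miR-223-3p: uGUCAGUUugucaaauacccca
hsa-miR-21-5p: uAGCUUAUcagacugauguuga
hsa-miR-3189-3p: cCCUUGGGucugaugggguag
hsa-let-7f-5p: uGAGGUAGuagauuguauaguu
hsa-miR-4500: uGAGGUAGuaguuucuu
hsa-miR-130b-3p: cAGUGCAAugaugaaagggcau
hsa-miR-4295: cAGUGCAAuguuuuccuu

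Promoters of 4 genes with large differences are shown because promoters of genes higher in line 1 more often held the letters AGGAAG. These letters contain the GGAA core bound by ETS family factors such as SPI1 (PU.1). Each window runs from 250 bases before to 50 after the RefSeq start, read 5′ to 3′ on the gene's strand, and capitals mark AGGAAG or its reverse complement CTTCCT. LAPTM5 (chr1:30757725-30758024, minus strand), LCP2 (chr5:170297728-170298027, minus strand) and TYROBP (chr19:35908246-35908545, minus strand) were higher in line 1. CACHD1 (chr1:64469879-64470178, plus strand) was higher in line 2 and holds 0 matches. The 2 matches in LAPTM5 overlap.
LAPTM5: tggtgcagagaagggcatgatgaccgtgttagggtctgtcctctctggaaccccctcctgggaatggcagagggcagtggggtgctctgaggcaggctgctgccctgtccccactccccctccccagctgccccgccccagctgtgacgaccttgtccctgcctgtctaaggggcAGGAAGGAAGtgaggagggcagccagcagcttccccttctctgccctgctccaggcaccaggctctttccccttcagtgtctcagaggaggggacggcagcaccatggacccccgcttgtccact
LCP2: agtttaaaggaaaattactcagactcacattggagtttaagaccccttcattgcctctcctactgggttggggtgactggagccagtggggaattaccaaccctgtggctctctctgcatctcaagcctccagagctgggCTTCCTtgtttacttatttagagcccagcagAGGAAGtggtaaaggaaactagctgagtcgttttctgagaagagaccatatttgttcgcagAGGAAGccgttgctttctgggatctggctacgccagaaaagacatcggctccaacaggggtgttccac
TYROBP: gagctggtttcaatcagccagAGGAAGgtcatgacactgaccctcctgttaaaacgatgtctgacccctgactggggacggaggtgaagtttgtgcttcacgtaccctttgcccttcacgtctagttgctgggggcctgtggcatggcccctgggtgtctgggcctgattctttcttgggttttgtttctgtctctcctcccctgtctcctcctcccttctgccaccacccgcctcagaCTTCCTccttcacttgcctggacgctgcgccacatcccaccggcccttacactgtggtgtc
CACHD1: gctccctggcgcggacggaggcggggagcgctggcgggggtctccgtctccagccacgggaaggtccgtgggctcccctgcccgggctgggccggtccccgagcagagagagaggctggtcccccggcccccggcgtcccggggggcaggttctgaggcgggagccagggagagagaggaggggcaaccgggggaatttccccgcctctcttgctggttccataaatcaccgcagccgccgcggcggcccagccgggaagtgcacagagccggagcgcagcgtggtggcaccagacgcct

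The lines differed by 2-fold or more in 833 genes. Line 1 was higher in 426 (2.86% of genes tested) and line 2 in 407 (2.73%). A 4-fold difference was reached by 103 genes higher in line 1 (0.692%) and 49 higher in line 2 (0.329%). With the adjusted p alone, without the fold limit, 4916 genes (33%) passed, 1971 higher in line 1 and 2945 higher in line 2. Small differences thus leaned the other way in the values as deposited, where the median difference over all genes was -0.04. Under quantile normalization that median was -0.01, and the count by adjusted p alone was not repeated there. All 4 arrays of line 1 lay above all 4 of line 2 in 15.2% of genes, and all 4 of line 2 above line 1 in 21.8%. Line 1 differed in 587 genes from naive S and 726 from naive K, and line 2 in 695 and 829. Against the mean of both naive sets, line 1 was higher in 467 genes (3.14%) and lower in 132 (0.887%), and line 2 was higher in 514 (3.45%) and lower in 188 (1.26%). Naive S and naive K differed in 41 genes (0.275%), the low-imatinib lines in 158 and the nilotinib lines in 566. Of the 37519 array features without a gene name here, 3.57% passed between the high-imatinib lines. These are counts from the same fit, and their differences were not tested.

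**Figure D1:**
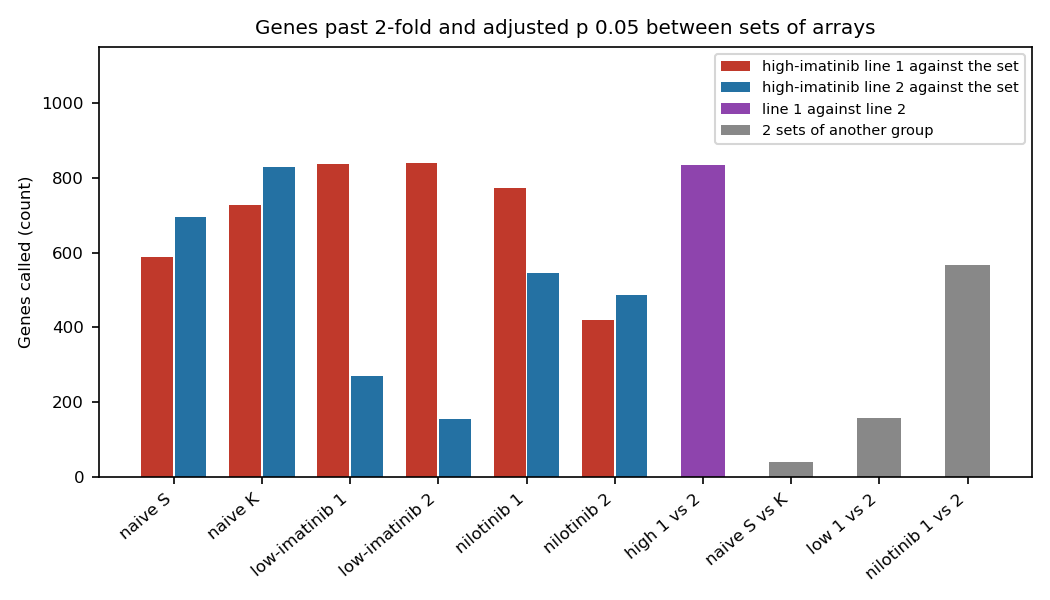
Bars give the number of genes past 2-fold and an adjusted p of 0.05 between sets of 4 arrays, for each high-imatinib line against each other set and for the 2 sets within each group. The high-imatinib lines differed from each other in 833 genes, against 155 between line 2 and low-imatinib line 2 and 41 between the naive sets.

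Line 2 stood near the low-imatinib lines and line 1 did not. Line 2 differed from low-imatinib line 2 in 155 genes and from low-imatinib line 1 in 269, where line 1 differed from them in 839 and 836. The set with the fewest genes different from line 1 was nilotinib line 2 (419), which differed from line 2 in 486. Among the 426 genes higher in line 1, nilotinib line 2 was nearer to line 1 than to line 2 in 259 (60.8%), low-imatinib line 2 in 47 (11%) and low-imatinib line 1 in 69 (16.2%). Among the 407 genes higher in line 2, low-imatinib line 2 was nearer to line 2 in 335 (82.3%) and low-imatinib line 1 in 316 (77.6%). Nilotinib line 2 was nearer to line 2 in 231 (56.8%) of these, so it was mixed between the lines. These are descriptions of single RNA sources, with no test.

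The spread between lines can be taken only from the other groups. With set means in place of arrays and the spread of the naive, low-imatinib and nilotinib pairs (3 residual degrees of freedom), 128 genes passed, 79 higher in line 1 and 49 higher in line 2. This assumes that the high-imatinib lines vary like those sets. The genes with the smallest adjusted p in that fit were CACHD1, HSPA4L and NRP1 (0.00487 each). Of the 59 genes named by rule, 23 passed it, and those that did are given with each group below.

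The largest differences were those of LAPTM5, ANXA1, NTS and ACSM3, all higher in line 1. LAPTM5, a lysosomal membrane protein of blood cells that limits antigen receptor signalling, stood at 13.20, 13.12, 13.22 and 13.26 in line 1 and at 7.01, 7.05, 6.94 and 6.86 in line 2. The naive arrays ranged from 8.18 to 9.11, so line 1 lay above and line 2 below all of them. The difference was 6.24 ± 0.14 (75.4-fold, adjusted p = 2.59e-26). ANXA1, a membrane-binding protein that restrains inflammation, stood at 11.14, 10.99, 10.96 and 10.94 in line 1 and at 4.63, 4.71, 4.54 and 5.26 in line 2. Its naive arrays ranged from 10.07 to 10.58, so nearly the whole difference of 6.22 ± 0.12 (74.7-fold, adjusted p = 2.21e-28) lay in line 2. NTS, which encodes the neuropeptide neurotensin, went the other way: 10.60, 10.36, 10.34 and 10.33 in line 1, 4.32, 4.36, 4.65 and 4.64 in line 2, and 4.74 to 6.07 in naive cells. Its difference was 5.92 ± 0.14 (60.4-fold, adjusted p = 6.2e-26), most of it a higher level in line 1. ACSM3, a mitochondrial acyl-CoA synthetase, was at 12.53 to 12.64 in line 1, 7.02 to 7.35 in line 2 and 11.32 to 12.13 in naive cells (5.39 ± 0.10, adjusted p = 4.49e-29). Low-imatinib lines 1 and 2 had means of 7.09 and 6.27 (LAPTM5), 8.16 and 5.98 (ANXA1), 8.44 and 6.64 (NTS) and 8.66 and 7.74 (ACSM3). Nilotinib lines 1 and 2 stood at 10.46 and 11.98, 8.45 and 10.80, 6.26 and 10.70, and 9.14 and 11.88 in the same order. Of these 4 genes only LAPTM5 passed with the spread of the other pairs (adjusted p = 0.0268, against 0.0876 for ANXA1, 0.242 for NTS and 0.101 for ACSM3).

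Next came receptors and adaptors known from leukocytes. CD69, an early activation antigen of lymphocytes, was at 9.53 to 9.63 in line 1, 4.03 to 4.46 in line 2 and 6.79 to 7.60 in naive cells (5.36 ± 0.13). STAP1, an adaptor downstream of tyrosine kinases, was at 9.49 to 9.73, 3.95 to 4.64 and 7.80 to 8.61 in the same order (5.16 ± 0.17). SLAMF6, a receptor of lymphocytes that binds itself, differed by 4.58 ± 0.19, and FYB1, an adaptor of T cell signalling, by 4.35 ± 0.16. CD44, the receptor for hyaluronan, was at 8.81 to 9.26 in line 1 and 5.00 to 5.27 in line 2 (3.94 ± 0.11). The lines did not overlap in any of these 5 genes, and the naive arrays lay between them. Means in nilotinib line 2 were 8.06 (CD69), 8.01 (STAP1), 7.99 (SLAMF6), 8.63 (FYB1) and 8.23 (CD44). Both low-imatinib lines and nilotinib line 1 had means below those of both naive sets in each of the 5. CD69, STAP1, SLAMF6, FYB1 and CD44 had adjusted p-values of 0.085, 0.0529, 0.159, 0.171 and 0.22 with the spread of the other pairs, so none of the 5 passed it.

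Regulators of the actin skeleton and of lipids were also among the 15 largest differences higher in line 1, as was the interferon-induced gene IFITM2. DOCK2, the leukocyte activator of the GTPase Rac, was at 10.16 to 10.30 in line 1, 5.63 to 5.92 in line 2 and 7.55 to 8.23 in naive cells (4.37 ± 0.14). ARHGEF6, an exchange factor for Rac and Cdc42, differed by 4.72 ± 0.19, and ARHGAP25, which switches Rac off, by 4.03 ± 0.14. LPCAT2, which makes the lipid mediator PAF, differed by 4.81 ± 0.14, and ELOVL7, a fatty acid elongase, by 4.14 ± 0.13. ARHGEF6 differed mainly through line 2, which lay 3.95 ± 0.16 below the naive mean, and ELOVL7 mainly through line 1, which lay 3.19 ± 0.12 above it. The adjusted p of these genes was at most 4.41e-20 on arrays and between 0.0626 and 0.199 with the spread of the other pairs. Means in nilotinib line 2 were 9.64 (DOCK2), 9.68 (ARHGEF6), 8.22 (ARHGAP25), 7.74 (LPCAT2), 8.25 (ELOVL7) and 10.56 (IFITM2). LPCAT2 was at 9.47 in nilotinib line 1. Both low-imatinib lines had means below those of both naive sets in each of these genes.

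**Figure D2:**
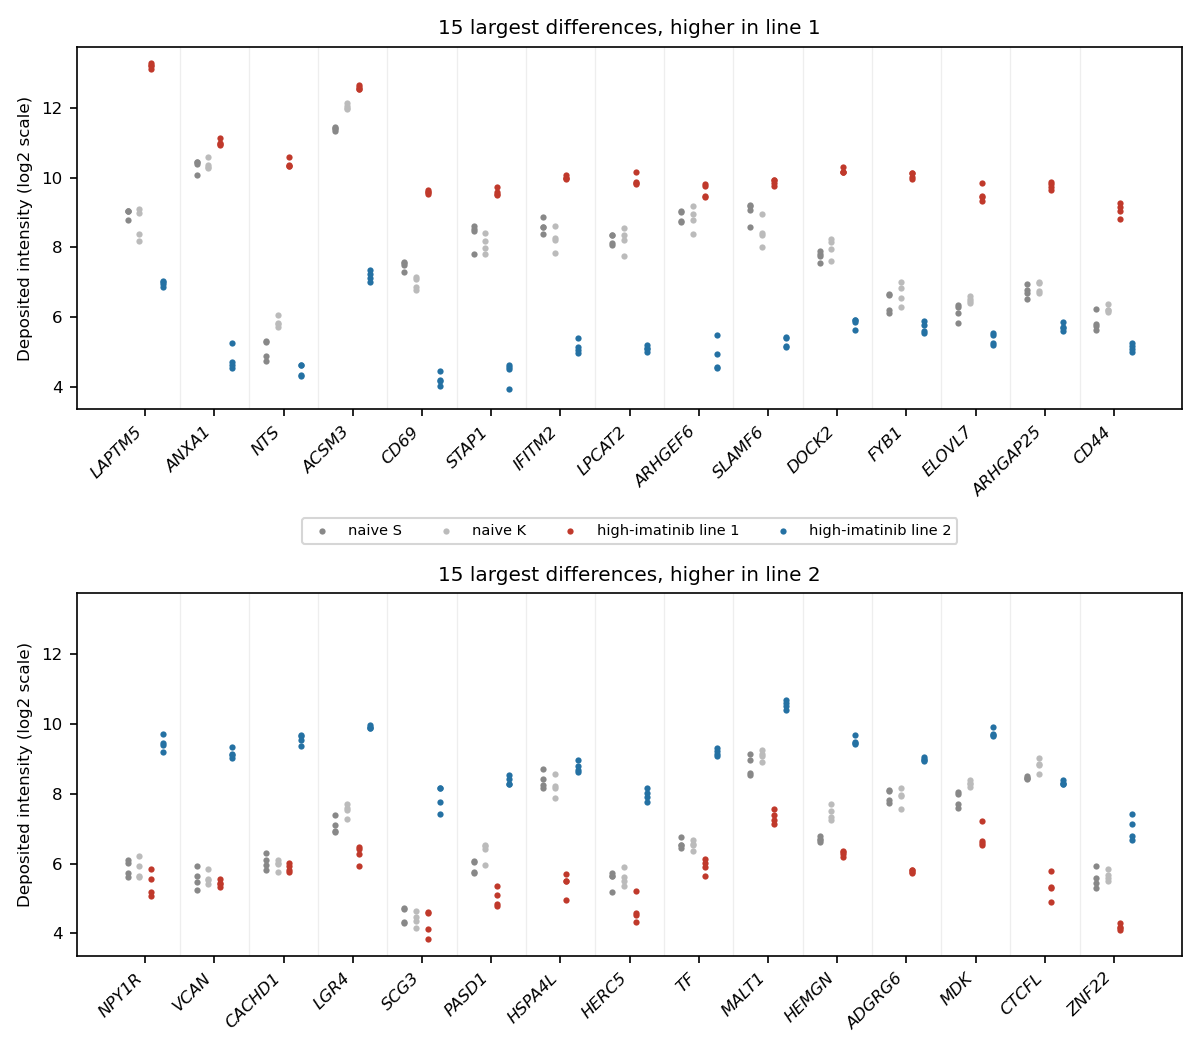
Each point is 1 array, with the deposited intensity (log2 scale) on the vertical axis and the 15 genes of largest difference in each direction on the horizontal axis, for naive S, naive K, line 1 and line 2. Line 1 and line 2 do not overlap for any of the 30 genes, and LAPTM5 reaches 13.26 in line 1 against at most 7.05 in line 2.

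Among genes higher in line 2, the largest differences included NPY1R, VCAN, CACHD1 and SCG3, which had all left the naive level in line 2 and not in line 1. NPY1R, a receptor for neuropeptide Y, was at 9.39, 9.19, 9.44 and 9.71 in line 2 and at 5.85, 5.19, 5.07 and 5.57 in line 1. Naive arrays ranged from 5.62 to 6.22, so line 2 lay far above all of them, and line 1 reached from within their range to below it (difference -4.01 ± 0.19, 16.1-fold, adjusted p = 7e-18). VCAN, the matrix proteoglycan versican, was at 9.32, 9.02, 9.12 and 9.11 in line 2, at 5.57, 5.45, 5.42 and 5.32 in line 1 and at 5.23 to 5.94 in naive cells. Its difference was -3.71 ± 0.12 (13.1-fold, adjusted p = 2.65e-22), but a dimmer feature of VCAN gave -0.68. CACHD1, a relative of calcium channel subunits, was at 9.36 to 9.69 in line 2, 5.76 to 6.01 in line 1 and 5.75 to 6.29 in naive cells (-3.68 ± 0.13). SCG3, a secretory granule protein, was at 7.42 to 8.15 in line 2, 3.84 to 4.62 in line 1 and 4.16 to 4.72 in naive cells (-3.59 ± 0.19). Line 1 overlapped the naive range in these 4 genes. Low-imatinib lines 1 and 2 were also above naive cells, at means of 10.02 and 8.64 for NPY1R, 6.91 and 6.50 for VCAN and 8.18 and 8.22 for CACHD1. Nilotinib lines 1 and 2 stood at 5.47 and 5.92, 5.72 and 5.31, and 6.06 and 5.77 in the same order. NPY1R, VCAN and CACHD1 passed with the spread of the other pairs (adjusted p = 0.0427, 0.0124 and 0.00487), and SCG3 did not (adjusted p = 0.68); nilotinib line 1 had SCG3 at 10.66 and nilotinib line 2 at 4.32.

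Other genes higher in line 2 were lower than naive in line 1 as well. LGR4, a receptor for R-spondins that strengthens Wnt signalling, was at 9.87 to 9.97 in line 2, 5.93 to 6.48 in line 1 and 6.89 to 7.70 in naive cells (-3.63 ± 0.12). MALT1, the protease that links antigen receptors to NF-κB, was at 10.40 to 10.69, 7.12 to 7.55 and 8.52 to 9.25 in the same order (-3.22 ± 0.12). MDK, the growth factor midkine, differed by -2.98 ± 0.12, ADGRG6, an adhesion G protein-coupled receptor, by -3.20 ± 0.11, and ZNF22, a zinc finger gene, by -2.82 ± 0.14. For HSPA4L, a chaperone of the HSP110 family, line 2 was close to naive cells and line 1 had moved: 5.70, 5.51, 5.51 and 4.95 in line 1, 8.62 to 8.95 in line 2 and 7.87 to 8.70 in naive cells (-3.34 ± 0.15). CTCFL, a testis paralog of the insulator protein CTCF, had the same placement (4.90 to 5.80 in line 1, 8.26 to 8.39 in line 2, 8.43 to 9.02 in naive cells, -2.98 ± 0.13). LGR4, MDK, ZNF22, HSPA4L and CTCFL passed with the spread of the other pairs (adjusted p between 0.00487 and 0.0405), and MALT1 (0.222) and ADGRG6 (0.066) did not.

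Placed against naive cells, neither line accounted for the difference alone. Of the 833 genes, 186 (22.3%) were placed as moved in line 1 alone, 200 (24%) in line 2 alone, 49 (5.88%) in both lines the same way and 190 (22.8%) in opposite ways, and 208 (25%) met no rule. A line had moved when it lay at least 1 from the naive mean with all 4 arrays outside the range of the 8 naive arrays. It was near naive when under 0.5 from their mean. For the other 2 classes both lines lay at least 0.5 from it. Most single moves were upward: 155 up and 31 down in line 1 alone, and 162 up and 38 down in line 2 alone. Where the lines went opposite ways, line 1 was above naive in 121 genes and line 2 in 69. Both placements use the same naive arrays. With naive S for line 1 and naive K for line 2 the counts were 165, 188, 56 and 217, and with the sets exchanged 187, 183, 61 and 204.

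**Figure D3:**
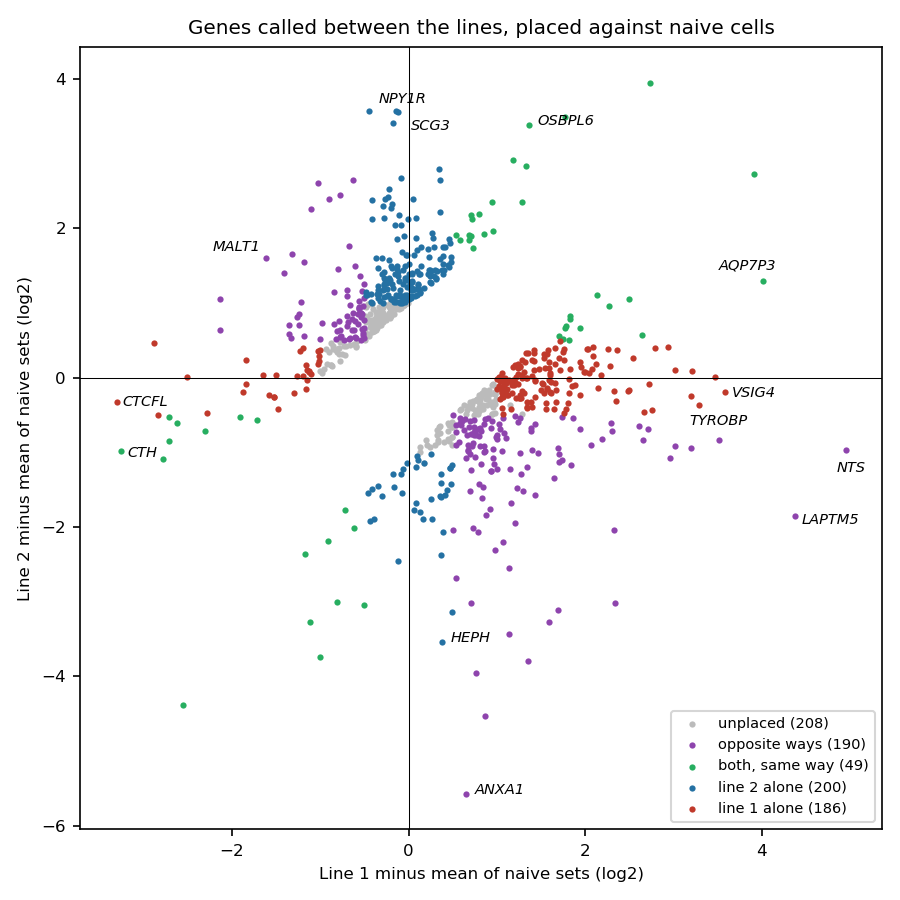
Each point is 1 of the 833 genes that differed between the lines, with line 1 minus the naive mean on the horizontal axis and line 2 minus the same naive mean on the vertical axis (log2). Genes along the horizontal axis moved in line 1 alone (186), genes along the vertical axis in line 2 alone (200), and the lower right holds genes such as LAPTM5 and ANXA1 that moved in opposite ways.

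Among genes placed as moved in line 1 alone, VSIG4, TYROBP, SIGLEC14 and NRP1 differed most between the lines. VSIG4, a complement receptor of macrophages, was at 9.66, 9.81, 9.95 and 9.79 in line 1, 5.92 to 6.18 in line 2 and 5.89 to 6.37 in naive cells (3.78 ± 0.10, adjusted p = 8.85e-25). SIGLEC14, an activating receptor for sialic acid, was at 9.92 to 10.24, 6.52 to 6.78 and 6.34 to 6.83 (3.46 ± 0.12). TYROBP, the signalling adaptor used by such receptors, was at 8.93 to 9.36, 5.07 to 5.73 and 5.64 to 6.09 (3.65 ± 0.14). NRP1, a coreceptor for VEGF and semaphorins, was at 9.09 to 9.30, 5.64 to 5.87 and 5.81 to 6.26 (3.45 ± 0.11). Line 1 stood apart from all other arrays of these comparisons in each of the 4 genes. VSIG4, SIGLEC14 and NRP1 passed with the spread of the other pairs (adjusted p = 0.0296, 0.0256 and 0.00487), and TYROBP did not (0.3), with nilotinib line 2 at 8.87.

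Among genes that moved in line 2 alone, HEPH and STXBP5 showed the largest falls. HEPH, a copper oxidase that helps export iron, was at 6.08, 5.98, 5.59 and 5.88 in line 2, 9.75 to 9.88 in line 1 and 8.92 to 9.89 in naive cells (3.93 ± 0.13, adjusted p = 2.05e-22). STXBP5, a regulator of vesicle fusion, was at 6.36 to 6.55, 10.02 to 10.20 and 9.27 to 9.88 in the same order (3.63 ± 0.09). Line 1 was within the naive range for HEPH and just above it for STXBP5. Both genes passed with the spread of the other pairs (adjusted p = 0.0268 and 0.0456).

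Where both lines moved the same way, they differed in how far. CD24, a surface glycoprotein, fell by 1.01 ± 0.14 in line 1 and fell by 3.74 ± 0.14 in line 2 against naive cells. BST2, which tethers viruses to the cell surface, stood at -0.81 ± 0.14 in line 1 and -3.01 ± 0.14 in line 2, and EPB41L2, a membrane skeleton protein, at -0.51 ± 0.11 and -3.04 ± 0.11. CTH, which makes cysteine, went further in line 1 (-3.26 ± 0.13 against -0.99 ± 0.13), and so did AQP7P3, an aquaporin pseudogene (4.01 ± 0.11 against 1.29 ± 0.11). A feature of a pseudogene may also report near-identical copies. Line 1 had gone further in 22 of the 49 genes and line 2 in 27. Of the 5 genes named, CTH passed with the spread of the other pairs (adjusted p = 0.0474). Chosen after their values were seen, FN1, which encodes fibronectin, and NMU, which encodes neuromedin U, gave the opposite picture of large moves shared almost exactly. FN1 lay at -3.49 ± 0.08 in line 1 and -3.48 ± 0.08 in line 2 against naive cells, with a difference between the lines of -0.00 (95% interval -0.20 to 0.19). NMU lay at -4.59 ± 0.14 and -4.60 ± 0.14, with a difference of 0.00 (95% interval -0.33 to 0.33).

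The gene lists were read against the shares of all genes, 2.86% higher in line 1 and 2.73% in line 2. Over all lists, 714 different genes were measured, 54 of them (7.56%) higher in line 1 and 56 (7.84%) in line 2. No list was tested as a group, and the lists were chosen with earlier results of these data known.

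Erythroid genes that differed were nearly all higher in line 2. Of 27 measured members of 59 in the list, 10 (37%) were higher in line 2 and 1 (3.7%) in line 1, 16 did not pass, and the list median was -0.67 against -0.04 for all genes. FECH, which inserts iron into heme, was at 7.68, 7.48, 7.45 and 7.66 in line 1, 10.01, 10.01, 10.01 and 10.10 in line 2 and 7.46 to 8.08 in naive cells (-2.47 ± 0.11, adjusted p = 1.9e-18). ERMAP, a red cell adhesion protein, was at 7.16 to 7.39, 9.65 to 9.78 and 7.04 to 8.10 (-2.42 ± 0.10), and CA2, a carbonic anhydrase of red cells, at 5.01 to 5.76, 7.57 to 7.95 and 5.02 to 5.88 (-2.28 ± 0.13). In these 3 genes line 2 had moved and line 1 overlapped the naive arrays. FECH was above naive cells in the other resistant lines too, at means of 9.13 and 9.95 with low imatinib and 9.20 and 9.02 with nilotinib. RHAG, part of the Rh complex, differed the other way round, at 7.89 to 7.96 in line 1 against 9.50 to 9.83 in line 2 and 9.61 to 9.95 in naive cells (-1.75 ± 0.09). CAT, PPOX, TFR2, KLF1, XK and UROS made up the 10, with differences from -1.38 to -1.01. KLF1, the master factor of red cell genes, was at 7.44 to 7.67 in line 1 and 8.36 to 8.97 in line 2. The 1 member higher in line 1 was MYB, a factor of immature cells (1.51 ± 0.10), which had fallen by 1.90 in line 2 against naive cells. GATA1, the factor that defines the lineage, did not differ beyond its error (9.30 to 9.52 in line 1, 9.34 to 9.51 in line 2, difference -0.02, 95% interval -0.21 to 0.18). FECH, ERMAP and MYB passed with the spread of the other pairs, 3 of the 11.

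Iron handling genes were mixed. Of 20, HEPH (5%) was higher in line 1, and TF and TFR2 (10%) in line 2, with TFR2 also on the erythroid list. TF, which encodes the plasma iron carrier transferrin, was at 9.07 to 9.31 in line 2, 5.64 to 6.13 in line 1 and 6.37 to 6.77 in naive cells (-3.26 ± 0.12, adjusted p = 6.06e-21, 0.0367 with the spread of the other pairs). HEMGN, a nuclear protein of blood progenitors on neither list, was at 9.43 to 9.68 in line 2, 6.20 to 6.37 in line 1 and 6.61 to 7.69 in naive cells (-3.22 ± 0.10, 0.0282 with that spread). Line 2 lay above and line 1 below all naive arrays in both.

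Of 38 lymphoid genes, 6 (15.8%) were higher in line 1 and 0 in line 2: CD69, STAP1, CD53, LCP2, CD52 and CD37. The other 32 did not pass, and the list median was 0.05. LCP2 (SLP-76), an adaptor of T cell and platelet signalling, was at 10.41, 10.41, 10.71 and 10.56 in line 1, 6.97, 6.99, 6.98 and 7.17 in line 2 and 7.54 to 8.09 in naive cells (3.50 ± 0.11, adjusted p = 1.03e-22). CD53, a leukocyte tetraspanin, was at 9.94 to 10.08, 6.17 to 6.67 and 8.36 to 9.22 (3.68 ± 0.16). LCP2 and CD53 passed with the spread of the other pairs (adjusted p = 0.0124 and 0.0142). In all 6 genes line 1 lay above and line 2 below the naive mean. CD2 (0.19 ± 0.11) and CD7 (-0.21 ± 0.12), the lymphoid markers measured, did not pass.

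Of 18 granulocyte and monocyte genes, 4 (22.2%) were higher in line 1 and 0 in line 2: TYROBP, CD68, SPI1 and LYZ, with a list median of 0.14. SPI1 (PU.1), the factor that directs myeloid fate, was at 7.60, 7.69, 7.64 and 7.84 in line 1, 6.11, 6.47, 6.42 and 5.83 in line 2 and 6.64 to 7.18 in naive cells (1.48 ± 0.13, adjusted p = 3.4e-11). CD68, a lysosomal protein of macrophages, was at 10.30 to 10.42, 7.57 to 7.82 and 8.20 to 8.74 (2.63 ± 0.10). LYZ, lysozyme, differed by 1.29 ± 0.13 because line 2 had fallen by 1.59 against naive cells. The neutrophil enzyme MPO (-0.11 ± 0.16) and the monocyte receptor CD14 (-0.03 ± 0.11) did not pass. CD68 passed with the spread of the other pairs (adjusted p = 0.0277) and SPI1 did not (0.343). Of 25 megakaryocyte and platelet genes, 4 (16%) were higher in line 1 and 0 in line 2: the thrombin receptor genes F2RL2 (2.66 ± 0.15), F2R (1.94 ± 0.11) and F2RL3 (1.27 ± 0.17), and MEIS1 (1.01 ± 0.10), a factor of stem cells and platelet precursors. The platelet chemokine genes PF4 (0.18 ± 0.13) and PPBP (0.40 ± 0.21) did not pass, and 0 of the 4 passed with the spread of the other pairs. Of markers of other tissues, EPCAM was lower in line 1 (5.56 to 6.26 against 7.74 to 7.98) and KRT19 higher in line 1 (1.13 ± 0.20), and the fibroblast gene DCN did not differ beyond its error (-0.01 ± 0.12).

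**Figure D4:**
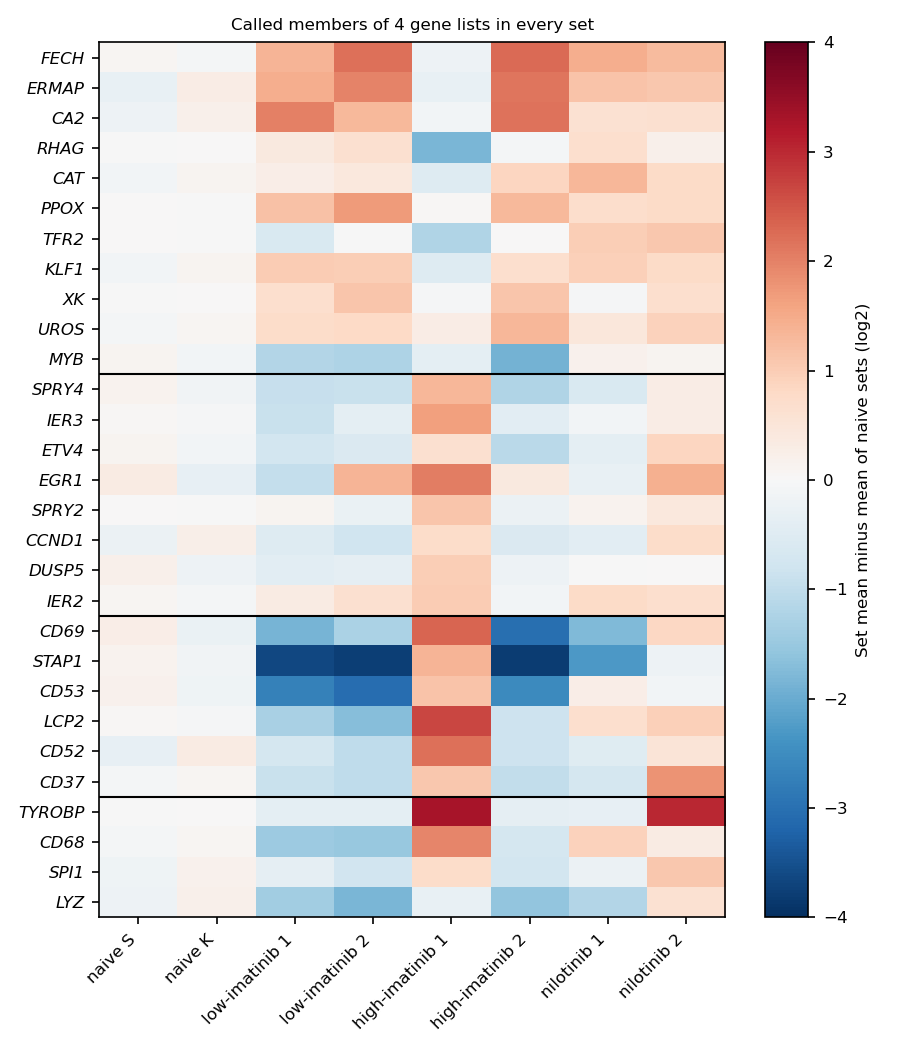
Rows are the called members of 4 gene lists, from top to bottom erythroid, MAPK output, lymphoid, and granulocyte and monocyte genes, and columns are the 8 sets of arrays. Colour gives the set mean minus the mean of the naive sets (log2). FECH, ERMAP and CA2 are higher in high-imatinib line 2 and the low-imatinib lines and near naive in high-imatinib line 1. FECH and KLF1 are above naive in both nilotinib lines as well. TYROBP stands out in high-imatinib line 1 and nilotinib line 2.

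The MAPK pathway relays growth factor signals to transcription. Of 23 of its output genes measured, 8 (34.8%) were higher in line 1 and 0 in line 2, 15 did not pass, and the median was 0.38. SPRY4, a feedback inhibitor of the pathway, was at 8.42 to 8.74 in line 1, 5.94 to 6.25 in line 2 and on average 7.40 in naive S and 7.13 in naive K (2.54 ± 0.10, adjusted p = 2.72e-20). EGR1, an immediate early factor, was at 10.90 to 10.97, 9.16 to 9.37 and 8.19 to 9.46 (1.65 ± 0.11), and IER3, another immediate early gene, at 9.63 to 9.92, 7.62 to 7.77 and 7.87 to 8.34 (2.07 ± 0.11). Line 1 was above all naive arrays in these 3 genes, and line 2 was below them in SPRY4 and IER3. ETV4, SPRY2, CCND1, DUSP5 and IER2 differed by 1.14 to 1.74. IER3 passed with the spread of the other pairs (adjusted p = 0.0441), and the other 7 did not (0.0504 for SPRY4).

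Kinases were split between the lines. Of 42 drug target and alternative tyrosine kinases, 8 (19%) were higher in line 1 (KIT, BTK, JAK1, EPHB6, SYK, AXL, PTK2B and YES1) and 5 (11.9%) in line 2 (MET, MERTK, FGFR3, IGF1R and FGFR1). KIT, the stem cell factor receptor and itself an imatinib target, had fallen in both lines: 7.39 to 7.67 in line 1, 5.12 to 5.86 in line 2 and 8.17 to 9.35 in naive cells (2.16 ± 0.17). JAK1, a cytokine receptor kinase, was at 10.41 to 10.49, 8.64 to 8.78 and 8.81 to 9.37 (1.73 ± 0.10). SYK and BTK, kinases of immune receptors, differed by 1.54 ± 0.11 and 2.05 ± 0.11, SYK through line 1 and BTK through line 2. MET, the receptor for hepatocyte growth factor, was at 4.81 to 5.78 in line 1 and 7.06 to 7.40 in line 2 (-1.94 ± 0.15). JAK1 was the 1 of these 13 that passed with the spread of the other pairs (adjusted p = 0.0289). LYN, a Src family kinase, did not differ beyond its error (0.02, 95% interval -0.19 to 0.24). BCR, whose promoter drives the fusion gene, was at 7.62 to 7.97 in line 1 and 8.01 to 8.31 in line 2, a difference of -0.38 ± 0.10 (adjusted p = 0.00389) that is below the 2-fold limit. The BCR feature does not tell the fusion transcript from normal BCR.

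STAT5 targets did not move as a block. Of 17, CD69, STAT5A (1.93 ± 0.15) and DUSP5 were higher in line 1, and CCND2 and PIM2 in line 2. CCND2, the cyclin D2 gene, was at 5.37 to 5.83 in line 1, 7.95 to 8.19 in line 2 and 7.67 to 8.37 in naive cells (-2.52 ± 0.12), with -0.35 at a dimmer feature. PIM2, a survival kinase, was at 7.38 to 7.49, 9.22 to 9.46 and 7.96 to 9.44 (-1.93 ± 0.12). MCL1, an antiapoptotic member of the BCL2 family, was at 10.07 to 10.27 in line 1, 8.45 to 8.59 in line 2 and 7.76 to 8.40 in naive cells (1.68 ± 0.11, adjusted p = 2.95e-14, 0.0415 with the spread of the other pairs). It was the 1 of 21 family members (4.76%) higher in line 1, and BNIP3 was the 1 higher in line 2 (-1.30 ± 0.13), shares near those of all genes. Of the 5 STAT5 targets, 0 passed with the spread of the other pairs.

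Stress genes of the ATF4 pathway, which cells switch on when amino acids or folding capacity run short, had a median of 0.47. Of 28 genes, 4 (14.3%) were higher in line 1, 2 (7.14%) in line 2 and 22 did not pass. Against naive cells the list median was 0.05 in line 1 and -0.39 in line 2, so as a list it was line 2 that lay lower. GDF15, a secreted stress hormone, was at 11.24, 11.26, 11.47 and 11.38 in line 1, 9.17, 9.46, 9.29 and 9.21 in line 2 and 9.72 to 10.27 in naive cells (2.06 ± 0.11, adjusted p = 1.86e-16, 0.0392 with the spread of the other pairs). TRIB3 (1.66 ± 0.13), DDIT3 (1.47 ± 0.17) and SESN2 (1.25 ± 0.11) made up the 4 higher in line 1. For TRIB3, line 2 (7.19 to 7.66) lay below all naive arrays (7.95 to 8.95). Line 1 (8.93 to 9.21) reached from within their range to above it. DDIT3, the factor CHOP, was above all naive arrays in line 1 (7.93 to 8.33 against 6.36 to 7.44) and within their range in line 2. The 2 genes higher in line 2 make amino acids. PSAT1, of serine synthesis, was at 7.43 to 7.78 in line 1, 9.86 to 10.09 in line 2 and 9.84 to 10.86 in naive cells (-2.33 ± 0.13), and CTH, of cysteine synthesis, differed by -2.27 ± 0.14. In the unfolded protein response list of 11 genes, ERN1 (IRE1), a stress sensor of the endoplasmic reticulum, was higher in line 1 (8.09 to 8.25 against 6.47 to 6.66, 1.56 ± 0.14, 0.0367 with the spread of the other pairs), as was SEL1L (1.19 ± 0.11).

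**Figure D5:**
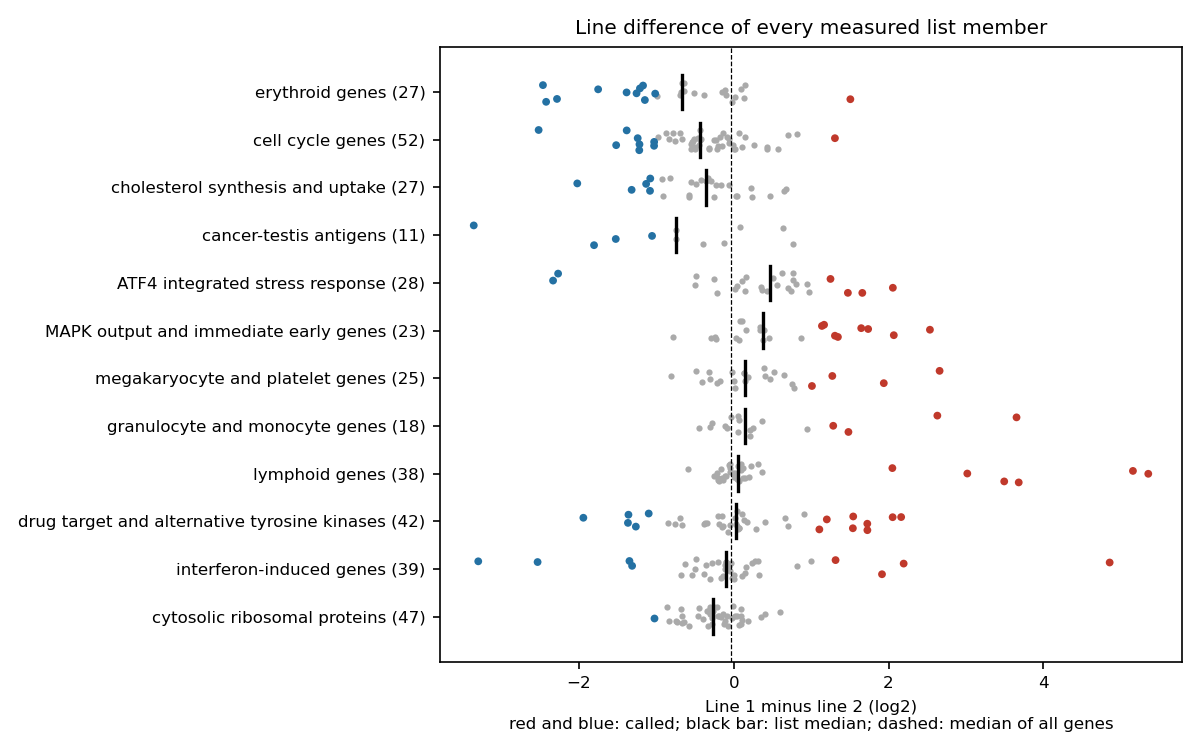
Each point is 1 measured gene of 12 gene lists, with line 1 minus line 2 (log2) on the horizontal axis, and red and blue mark genes called higher in line 1 and in line 2. Black bars give list medians, which run from -0.75 for cancer-testis antigens to 0.47 for the ATF4 response, and the dashed line is the median of all genes at -0.04.

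Cell cycle and cholesterol genes that differed were nearly all higher in line 2. Of 52 cell cycle genes, 8 (15.4%) were higher in line 2 and 1 (1.92%), CCND1, in line 1, and the median was -0.43. CCND2 was the largest, followed by PLK4, which starts centriole copying (7.34, 7.27, 6.85 and 7.24 in line 1, 8.78, 8.48, 8.48 and 9.03 in line 2, -1.52 ± 0.14), and CDC6, which loads the replicative helicase (-1.38 ± 0.12). For PLK4 and CDC6 line 1 overlapped the naive arrays and line 2 lay above all of them. Both lines had a cell cycle median above naive, 0.29 in line 1 and 0.66 in line 2. Of 27 cholesterol genes, 5 (18.5%) were higher in line 2 (OSBPL6, ACAT2, NSDHL, DHCR7 and FASN) and 0 in line 1, with a median of -0.35. OSBPL6, an oxysterol-binding protein, had risen in both lines (7.73 to 7.90 in line 1 and 9.78 to 9.83 in line 2, against 6.17 to 6.63 in naive cells). None of these cell cycle or cholesterol genes passed with the spread of the other pairs.

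Interferon-induced genes went both ways. Of 39, 4 (10.3%) were higher in line 1 (IFITM2, BST2, SP100 and PLSCR1) and 4 (10.3%) in line 2 (HERC5, RSAD2, HERC6 and IFIH1), with a median of -0.10. IFITM2, which blocks virus entry, was at 9.95 to 10.08 in line 1, 4.97 to 5.40 in line 2 and 7.83 to 8.86 in naive cells (4.86 ± 0.14). HERC5, the ligase for the modifier ISG15, was at 4.33 to 5.20, 7.76 to 8.17 and 5.19 to 5.91 (-3.30 ± 0.16), and RSAD2, an antiviral enzyme, at 6.22 to 6.92, 9.03 to 9.14 and 6.50 to 7.38 (-2.53 ± 0.12). SP100 (1.92 ± 0.14) and PLSCR1 (1.32 ± 0.14) passed with the spread of the other pairs, and the other 6 did not.

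Cancer-testis genes, silent in most adult tissues, had the lowest list median, -0.75 over 11 genes. PASD1, FMR1NB, DDX53 and CTAG2 (36.4%) were higher in line 2 and 0 in line 1. PASD1 was at 8.27 to 8.55 in line 2, 4.79 to 5.35 in line 1 and 5.74 to 6.52 in naive cells (-3.36 ± 0.15), and FMR1NB (-1.81 ± 0.12) passed with the spread of the other pairs. Of 31 neuropeptide and secretory genes, NTS and APOC1 were higher in line 1 and NPY1R, SCG3, TF and NPY5R in line 2. NPY5R, another receptor for neuropeptide Y, differed by -2.24 ± 0.16. The largest called members of several other lists follow. CTSS, a lysosomal protease of antigen-presenting cells, was at 8.62 to 9.26 in line 1 and 5.40 to 5.82 in line 2 (3.29 ± 0.15). VIM, the filament protein vimentin, was at 10.62 to 10.70 in line 1, 7.41 to 7.59 in line 2 and 9.19 to 9.61 in naive cells (3.16 ± 0.08), and 2 other VIM features gave 3.13 and 2.76. FZD3, a Wnt receptor, was lower in line 1 (-1.91 ± 0.12). SESN3, which restrains mTORC1, had risen in both lines and more in line 2 (-1.71 ± 0.13), but the other 2 called members of its list of 18, SESN2 (1.25) and TXNIP (1.18), were higher in line 1. CTSS, VIM and FZD3 passed with the spread of the other pairs (adjusted p = 0.0484, 0.0296 and 0.0256). Among 47 cytosolic ribosomal protein genes, RPL29 alone passed the 2-fold limit (-1.03 ± 0.12), and its many processed copies make that feature uncertain.

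Few microRNA genes differed, and most of those that did were higher in line 1. Of 1072 miRNA genes measured, 15 (1.4%) were higher in line 1 and 4 (0.373%) in line 2, against 3.25% and 3.28% of protein-coding genes, and 998 were matched to RefSeq sequences. MIR223 was at 8.28, 8.31, 8.23 and 8.19 in line 1, 5.49, 5.62, 5.60 and 5.34 in line 2 and 7.47 to 8.17 in naive cells (2.74 ± 0.13, adjusted p = 2.41e-18). MIR21 was at 7.53 to 7.88, 4.99 to 5.60 and 7.28 to 8.39 (2.34 ± 0.15). In both genes line 2 had fallen, and line 1 was within the naive range for MIR21 and just above it for MIR223. MIR21 lies in VMP1, which did not differ beyond its error (0.12 ± 0.10). MIR3189 was at 8.19 to 8.45 in line 1, 5.37 to 6.59 in line 2 and 5.30 to 6.33 in naive cells (2.28 ± 0.23), beside 2.06 for GDF15, the gene that contains it. MIR616, which overlaps DDIT3, differed by 1.38 ± 0.23 beside 1.47, and MIR628, in the readthrough gene DNAAF4-CCPG1, by 1.47 ± 0.13 beside 1.43. A feature of a miRNA within a gene can report the transcript of that gene, so these 3 pairs are not separate measurements. MIRLET7F1 (1.52 ± 0.28) and MIR4500 (1.08 ± 0.22), whose mature forms share a seed, were higher in line 1. Their means were 4.73 and 5.56 in line 1 and 3.22 and 4.48 in line 2. All of these lay below the 25th percentile of genes (5.65 in line 1, 5.66 in line 2), so both features were dim. MIR1264, MIR3668, MIR548C and MIR548X, also higher in line 1, were below that percentile in both lines as well. MIR4295 was higher in line 1 (1.10 ± 0.19) and MIR130B, with the same seed on its 3p arm, in line 2 (mean 6.22 in line 1 against 7.23 in line 2). For MIR130B the naive sets lay further apart than the lines, at 5.74 in naive S and 7.69 in naive K, with both lines between them. MIR3189 (0.0264) and MIR628 (0.037) passed with the spread of the other pairs, and MIR223 (0.225) and MIR21 (0.113) did not. Neither did MIR616 (0.0807), MIRLET7F1 (0.228), MIR4500 (0.431), MIR4295 (0.352) or MIR130B (0.794).

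Promoters of the genes higher in line 1 differed in composition from those higher in line 2. RefSeq windows were matched for 10749 genes. AGGAAG, on either strand, occurred in 46.3% of promoters of genes higher in line 1, 29.5% of those higher in line 2 and 33.9% of all, and in 53.3% and 30.8% at 4-fold. The median number of CG dinucleotides was 22 in genes higher in line 1, 26 in genes higher in line 2 and 23 in all, and 11 and 26 at 4-fold. AGATAA, a letter string recognised by GATA factors, occurred in 8.54%, 4.97% and 7.18% of promoters. At 4-fold it occurred in 14.7% (11 promoters) of those higher in line 1 and 5.13% (2 promoters) of those higher in line 2. Neither string contains the other, both were chosen after the values were seen, and neither got a test. A match is a description of letters and not a binding site, and windows with few CG dinucleotides differ in base composition, which was not adjusted for. Of the promoters printed above, LCP2 holds 3 matches and 5 CG dinucleotides, LAPTM5 2 and 5, TYROBP 2 and 8, and CACHD1 0 and 29. Single genes also ran against these shares. SCG3 (3 matches), NPY1R (2), MALT1 (2) and VCAN (1) were higher in line 2, and CD44, ELOVL7 and HEPH, with 0 matches each, were higher in line 1.

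Along the chromosomes, there were 5 stretches where neighbouring genes leaned the same way. A stretch was a run of windows of 25 neighbouring measured genes whose median difference was at least 0.5 in size, and all 5 were lower in line 1. The longest ran from HSPA4L to POU4F2 on chromosome 4, with a median of -0.49 over 38 genes, of which 36 were lower in line 1 and 6 passed as higher in line 2. Its median lay at -0.30 in line 1 and 0.26 in line 2 against naive cells. The others ran from MIR369 to MIR4710 on chromosome 14 (32 genes, -0.47), KATNAL2 to LINC01630 on chromosome 18 (27 genes, -0.49), MIR4740 to NARF on chromosome 17 (34 genes, -0.34) and ISLR to DNM1P35 on chromosome 15 (29 genes, -0.27). The low-imatinib pair had 4 such stretches, the nilotinib pair 4 and the naive pair 0. The count depended on the window, with 18 at 15 genes and 0 at 51, and on dim genes, with 12 when the dimmest 40% were left out. Clusters of called genes that such a window misses were not searched for. Copy number was not measured in these arrays.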

How the data were processed

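Whole-transcript arrays of 8 sets of 4 were used, with sample groups taken from the source names and titles. The authors deposited 1 summarised intensity for each feature of each array, made with Transcriptome Analysis Console 4.0 per the submitters' processing notes. They read as log2 values (1.24 to 14.2), a base inferred from this deposited range since no label states it, and how they were normalized is not given in the sources used. Of 53617 features, 16098 carried 1 gene symbol from the platform annotation, all matched by gene ID to RefSeq (GRCh38.p14), and 37519 were unnamed here. A gene with several features (779 genes) was represented by the brightest, which left 14884 genes. Detection calls were not used. Precision is limited by the number of arrays.

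The 32 arrays were fitted with limma 3.58.1 (R 4.3.3) with 1 mean per set (24 residual degrees of freedom), with Benjamini-Hochberg adjustment over 14884 genes in each comparison. The fit was tested on simulated data, in which no shift under the fold limit and every shift above it was called. Named genes were the 15 largest differences in each direction without overlap of the lines, the 5 largest per placement class, the largest called member of each gene list, and BCR. Further list members, miRNA genes and promoters were picked after their values were seen. The members and the 32 gene lists were chosen with earlier results of these data known. Alternatives varied the scaling, the filter on dim genes, the feature used, the arrays fitted, the spread, the fold and placement limits, and left out each array.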

Additional observations from a re-analysis of the deposited data

Results flagged for a closer look

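Within a set, 12 of 236 gene and set combinations tested had 1 array far from the other 3, about the share of 1 in 20 that chance gives. In naive cells these were ANXA1 in naive S array 2 (10.07, others 10.39 to 10.45), CD24 in naive S array 2 (9.08, others 9.82 to 9.84), EPB41L2 in naive S array 4 (8.36, others 8.71 to 8.78), HERC5 in naive S array 4 (5.19, others 5.64 to 5.72), LAPTM5 in naive S array 4 (8.79, others 9.05 to 9.05), SESN3 in naive S array 2 (5.57, others 4.96 to 5.05). In the high-imatinib lines they were DOCK2 in line 1 array 4 (10.30, others 10.16 to 10.17), ERN1 in line 1 array 3 (8.25, others 8.09 to 8.11), FECH in line 2 array 4 (10.10, others 10.01 to 10.01), MDK in line 1 array 2 (7.22, others 6.53 to 6.64), NTS in line 1 array 1 (10.60, others 10.33 to 10.36), OSBPL6 in line 1 array 2 (7.90, others 7.73 to 7.76). None of these arrays brought line 1 and line 2 into overlap for its gene.

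For 29 of the named genes every array of line 1 lay on one side of all 8 naive arrays and every array of line 2 on the other. STXBP5 in line 1 (0.49 above the naive mean) and ERN1 in line 2 (-0.49) were within 0.5 of that mean, so these genes were placed as moved in the other line alone. The difference between the lines is tested above, and the opposition itself was not tested. The differences, line 1 minus line 2, were as follows where line 1 was above naive cells: ACSM3 5.39, ANXA1 6.22, ARHGAP25 4.03, ARHGEF6 4.72, CD44 3.94, CD69 5.36, CTSS 3.29, DOCK2 4.37, ELOVL7 4.14, ERN1 1.56, FYB1 4.35, IFITM2 4.86, LAPTM5 6.24, LPCAT2 4.81, NTS 5.92, SLAMF6 4.58, SPRY4 2.54, STAP1 5.16, STXBP5 3.63, VIM 3.16. Where line 2 was above naive cells they were: ADGRG6 -3.20, FZD3 -1.91, HEMGN -3.22, LGR4 -3.63, MALT1 -3.22, MDK -2.98, PASD1 -3.36, TF -3.26, ZNF22 -2.82.

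The 37519 features without a gene name here entered the comparisons above only as a share. Of these, 3.57% (1338) passed the same limits between the lines, against 1.14% (427) between naive S and naive K. Most of the features that differed between the lines are therefore unnamed here.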

How the results depend on the processing

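Counts are given in the order higher in line 1, higher in line 2, moved in line 1 alone, in line 2 alone, in both the same way and in opposite ways, where 426, 407, 186, 200, 49 and 190 were found. Leaving out each array of the lines in turn gave ranges of 406 to 450, 391 to 423, 181 to 193, 192 to 216, 47 to 50 and 187 to 199. All counts stayed within 1.5 times under quantile normalization (448 and 351 for the lines, 775 of its 799 genes shared), a common array median, the dimmest 40% of genes left out, averaged features, a fit to the compared arrays alone, either naive set alone, unshared naive sets, and the first component of technical variation taken out (462 and 369). Every array feature in place of genes gave 1118, 1103, 421, 507, 147 and 532 features. The spread of the other pairs of sets gave 79, 49, 37, 32, 1 and 49. The adjusted p alone gave 1971 and 2945, with 304 in line 2 alone and 363 in both, and the 4-fold limit gave 103, 49, 30, 29, 10 and 83. A limit of 0.7 for a line near naive gave 32 in both and 95 in opposite ways, and 0.3 gave 97 and 374. Stretches of neighbouring genes numbered 3 under quantile normalization, 3 with the technical component out, 12 without dim genes, 18 with windows of 15 genes and 0 with 51. The 59 named genes kept their direction and their side of the adjusted p threshold in every setting run except the spread of the other pairs, where 36 no longer passed (56 of the 59 were bright enough for the dim filter). The array number as a replicate block left all 6 counts as they were (426 and 407 for the lines). Same-numbered arrays of the lines did not deviate together (r of 0.06, 0.02, 0.08 and -0.11), so the numbers do not pair the arrays. With 1 RNA source per line, differences between the lines cannot be told apart from differences between cultures or RNA preparations, and for dim genes the array background limits how low a value can read.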

Other observations

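Some genes that no list held had also moved far in only 1 of the lines. They are named here after their values were seen, and no explanation was tested. In line 1, CCL2, a chemokine that attracts monocytes, lay 3.01 above the naive mean against 0.10 in line 2 (difference 2.91 ± 0.17, adjusted p = 6.23e-16). SUCNR1, the receptor for the metabolite succinate, lay 3.21 above it against 0.08 (3.12 ± 0.20). HEY1, a target of Notch signalling, lay 2.61 above it in line 1 and stood at -0.65 in line 2 (3.26 ± 0.20). By the placement limits HEY1 went opposite ways, with the smaller move in line 2. In line 2, PROX1, a transcription factor of lymphatic vessels, lay 2.65 above the naive mean against 0.36 in line 1 (-2.30 ± 0.09, adjusted p = 7.81e-20). GAB1, a docking protein of receptor tyrosine kinases, lay 2.37 above it in line 2 and stood at -0.41 in line 1 (-2.78 ± 0.14), and MSI1, an RNA-binding protein of stem cells, at 2.39 and -0.27 (-2.66 ± 0.13).

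Genes in which both lines had left the naive level included AHR, the receptor for dioxin and related ligands, which stood at -2.55 in line 1 and -4.39 in line 2 (1.84 ± 0.14), and the growth factor FGF2, at -2.78 and -1.09 (-1.69 ± 0.12). RELN, which encodes the secreted protein reelin, lay 2.73 above naive cells in line 1 and 3.95 in line 2 (-1.22 ± 0.09), and TXNIP, which restrains glucose uptake, 3.91 and 2.73 (1.18 ± 0.14). Of the 10 genes named in these paragraphs, GAB1 passed with the spread of the other pairs of sets (adjusted p = 0.0367). The others did not, from 0.0945 for HEY1 to 0.788 for AHR, with 0.449 for CCL2, 0.322 for SUCNR1 and 0.326 for PROX1.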
